A study of Mus musculus with 12 samples.

Results

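Cluster 16, which the authors named Caudal Subcortical PN, is a group of projection neurons (PN) of the embryonic mouse cortex profiled by single nucleus RNA sequencing (snRNAseq), in which RNA molecules are counted by their unique molecular identifiers (UMIs). Its members were all nuclei that the authors assigned to the cluster, 1132 of 50550 nuclei, and it ranked 16 by size among 25 clusters. Cortices came from C57BL/6J embryos at embryonic day 14 whose dams had received daily intraperitoneal injections of saline or of ethanol (EtOH) during early and mid gestation. The 5 saline embryos were S1-1 and S1-2 of dam S1 and S2-1, S2-2 and S2-4 of dam S2. The 6 EtOH embryos were E1-1 and E1-2 of dam E1 and E2-1 to E2-4 of dam E2. The first dam of each treatment was processed in batch 1 and the second in batch 2. Each treatment thus rests on 2 litters, and the tests below take littermates as independent.

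Subcortical projection neurons are the excitatory neurons of the deep cortical layers that send axons out of the cortex, to the spinal cord, brainstem or thalamus, whereas callosal neurons connect the hemispheres. Fezf2 is a transcription factor required for the subcortical fate, and Bcl11b (Ctip2) acts downstream of it in corticospinal neurons. Crym encodes mu-crystallin, a thyroid hormone-binding protein, and the authors used it as a marker of caudal cortex beside Mc4r, a melanocortin receptor gene, as a marker of rostral cortex. Nr2f1 and Nr2f2 (COUP-TFI and COUP-TFII) are nuclear receptors with higher expression toward the caudal cortex.

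Cluster 16 held 616 nuclei of saline embryos and 516 of EtOH embryos. Embryos contributed between 28 nuclei (S2-1) and 197 nuclei (S1-1), with 255534 to 2864206 UMIs per embryo in the cluster. Nuclei had 1568 to 61055 UMIs, and 57 nuclei exceeded their embryo's median more than 2-fold. None of the Cluster 16 barcodes occurred in the cluster in more than 1 embryo, and 15 of them occurred in another cluster of another embryo. The saline embryo S2-1 stood apart from the rest, with the fewest nuclei, 1 Crym UMI, and a summed level of the hippocampal genes described below of 736 CPM against 1597 to 3811 CPM in the other embryos. As a check for libraries deposited more than once, the counts of same-dam embryos were compared, and none of the 11 pairs matched within sampling noise.

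The share of nuclei in Cluster 16 did not differ detectably between treatments. In the saline embryos, the cluster made up 2.58% (S1-1), 2.28% (S1-2), 0.465% (S2-1), 2.66% (S2-2) and 2.19% (S2-4) of nuclei. In the EtOH embryos, the values were 1.62% (E1-1), 5.45% (E1-2), 1.39% (E2-1), 2.19% (E2-2), 3.54% (E2-3) and 2.5% (E2-4). The groups overlapped, with S2-1 far below the other saline embryos and E1-2 far above the other EtOH embryos. The mean was 2.04% ± 0.899 (SD, n = 5) after saline and 2.78% ± 1.51 (SD, n = 6) after EtOH, a difference of 0.747 percentage points (two-sided exact permutation test over 462 splits, p = 0.396, and 0.634 after Benjamini-Hochberg adjustment over 8 measures per embryo). The difference was 0.355 percentage points without S2-1 and 0.214 without E1-2. Within batch 1 the means were 2.43% and 3.53%, and within batch 2 they were 1.77% and 2.41%. As a share of the nuclei of the 8 projection neuron clusters, Cluster 16 made up 6.68% ± 2.47 (SD, n = 5) after saline and 7.43% ± 3.11 (SD, n = 6) after EtOH (p = 0.677 by the exact permutation test, 0.903 when adjusted), and the difference of 0.748 percentage points became -0.29 without S2-1 and -0.19 without E1-2.

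Depth differed between the treatments. The median number of UMIs per Cluster 16 nucleus was 12220 in S1-1, 12815 in S1-2, 9723 in S2-1, 11294 in S2-2 and 8584 in S2-4. It was 6161 in E1-1, 8172 in E1-2, 9290 in E2-1, 8698 in E2-2, 8127 in E2-3 and 8459 in E2-4. S2-4 lay within the range of the EtOH embryos, and S2-1 lay above their highest value by less than the SD of either group. The EtOH mean was lower by 2776 UMIs, at 8151 ± 1063 (SD, n = 6) against 10927 ± 1754 (SD, n = 5) (exact permutation test, p = 0.00649, 0.0346 after adjustment for the 8 measures, and p = 0.0143 over the 210 splits within batches). The smallest p these designs allow is 0.00216 over all splits and 0.00476 within batches. Most of the gap lay in batch 1, where the means were 12518 UMIs after saline and 7166 after EtOH. In batch 2 they were 9867 and 8644 UMIs. In these nuclei, fewer UMIs from less RNA per nucleus and from less sequencing cannot be told apart. Over all 25 clusters, saline embryos had 44017566 (S2-2) to 83061737 UMIs (S1-1), in 4437 to 7639 nuclei. EtOH embryos had 14078316 (E1-1) to 38034349 UMIs (E2-2), in 2346 (E2-3) to 4928 nuclei (E2-2). The gap is thus not given as particular to Cluster 16, and depth per nucleus was not compared between treatments in other clusters.

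**Figure D1:**
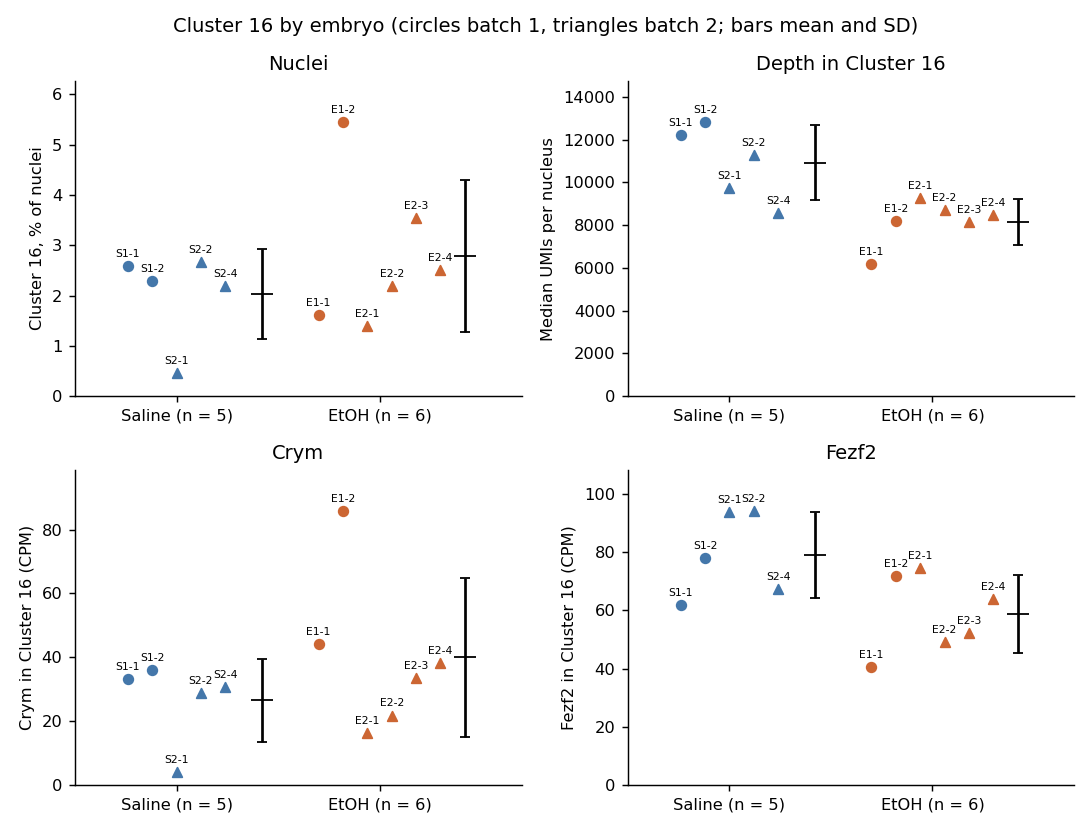
Values of each embryo for Cluster 16: percentage of all nuclei, median UMIs per nucleus, and the levels of Crym and Fezf2 in CPM, the UMIs of a gene per 1000000 UMIs of the cluster, for 5 saline and 6 EtOH embryos. Black bars give the mean and SD. Circles are batch 1 and triangles batch 2, and S2-1 has the lowest percentage (0.465%) and the lowest Crym (3.91 CPM).

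Levels are given below as CPM (UMIs per 1000000) of the counts summed over the Cluster 16 nuclei of an embryo. The clusters were made from these same genes, so levels between clusters are described without a test. CPM is not corrected for gene length, so levels are compared between clusters and embryos and not between genes.

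Crym, at 120186380 to 120202111 on the minus strand of chromosome 7 (GRCm38), had its highest level in Cluster 16, with 33.8 CPM ± 20.6 (SD, n = 11 embryos) against 5.09 CPM in Cluster 4, the next cluster and the one the authors named Rostral Subcortical PN. Cluster 16 exceeded Cluster 4 in 11 of 11 embryos. Among saline embryos, Crym had 33.2 CPM in S1-1, 35.9 in S1-2, 3.91 in S2-1, 28.7 in S2-2 and 30.7 in S2-4. Among EtOH embryos, it had 44.1 CPM in E1-1, 85.9 in E1-2, 16.1 in E2-1, 21.7 in E2-2, 33.5 in E2-3 and 38.2 in E2-4. The value of S2-1 rests on 1 UMI in 28 nuclei, and the groups overlapped (log2 fold change 0.44 ± 0.40 (SE), edgeR quasi-likelihood test, adjusted p = 0.694, and 0.35 with adjusted p = 0.754 without S2-1).

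A Crym UMI was found in 248 of 1132 nuclei (21.9%), at a median depth of 9352 UMIs per nucleus, against 3.86% of Cluster 4 nuclei at a median of 9236 UMIs and 0.284% of the nuclei of the 7 interneuron clusters, which should lack it, at a median of 7445 UMIs. Per embryo, the share ran from 3.57% (S2-1) to 34.4% (E1-2), and it averaged 19.7% ± 9.21 (SD, n = 5) after saline and 19.7% ± 7.75 (SD, n = 6) after EtOH. With every nucleus thinned to 2000 UMIs, the share was 4.19% ± 2.59 (SD, n = 5) after saline and 4.61% ± 3.31 (SD, n = 6) after EtOH (p = 0.829 by the exact permutation test, 0.947 when adjusted), and the difference of 0.422 percentage points became -0.62 without S2-1. At that depth, 0 of 28 nuclei of S2-1 had a Crym UMI, which allows a share of up to 10.7% by counting error alone. No nucleus had more than 7 Crym UMIs.

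Fezf2, at 12342094 to 12348189 on the minus strand of chromosome 14, had 68.0 CPM ± 17.1 (SD, n = 11) in Cluster 16, next to 77.7 CPM in Cluster 4 and above the other 23 clusters, with 39.7 CPM in Cluster 1, the largest callosal cluster. Its levels were 61.8 CPM in S1-1, 78.1 in S1-2, 93.9 in S2-1, 94.3 in S2-2 and 67.3 in S2-4 against 40.7 in E1-1, 71.8 in E1-2, 74.6 in E2-1, 49.2 in E2-2, 52.4 in E2-3 and 64.1 in E2-4. The EtOH embryos thus reached lower values than any saline embryo, while the groups overlapped (log2 fold change -0.37 ± 0.16, edgeR, adjusted p = 0.298). With nuclei thinned to 2000 UMIs, a Fezf2 UMI was found in 11.2% (S1-1) to 20.9% (S1-2) of nuclei of saline embryos and in 6.19% (E2-4) to 16.4% (E1-2) of nuclei of EtOH embryos. The means were 16.6% ± 4.17 (SD, n = 5) and 9.66% ± 3.72 (SD, n = 6), a difference that passed the exact permutation test by itself (p = 0.0260) and not after adjustment over the 8 measures (adjusted p = 0.0693). Among the 1132 nuclei, 143 had UMIs of both Crym and Fezf2, 105 of Crym without Fezf2, 393 of Fezf2 without Crym, and 491 of neither. Mc4r was near 0 in the cluster, at 0.451 CPM against 5.13 CPM in Cluster 4.

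Of the 13 corticospinal and layer 5 genes listed, Crym and S100a10, a calcium-binding protein gene at a low level (4.59 CPM against 1.37 CPM in Cluster 4, above it in 8 of 11 embryos), were highest in Cluster 16. Several other deep-layer genes were lower than in Cluster 4. Bcl11b had 745 CPM against 1200 CPM in Cluster 4 and ranked 10 of 25 clusters. Tbr1, a transcription factor of corticothalamic and other early-born neurons, had 45.8 CPM against 96.1 CPM. Ldb2, a corticospinal marker, had 463 CPM against 1300 CPM, and Cdh13, a cadherin gene of layer 5, had 2272 CPM against 4762 CPM. Hs3st4, a corticothalamic marker encoding a heparan sulfate sulfotransferase, had 261 CPM against 2722 CPM. Foxp2, a transcription factor of layer 6 neurons, had 108 CPM against 713 CPM and ranked 24 of 25 clusters. Foxp2 and Hs3st4 were below Cluster 4 in all 11 embryos. Sox5 (5259 CPM), a regulator of deep-layer neuron fate, and Zfpm2 (3010 CPM, highest of all clusters) ranked 3 and 1. Rorb, a nuclear receptor of layer 4 neurons, had 37.6 CPM, the lowest of the 25 clusters.

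Genes listed for cortical area or hippocampus differed from Cluster 4 in both directions. Of the caudal genes, Nr2f1 had 218 CPM against 68.6 CPM in Cluster 4, and Nr2f2 had 136 CPM against 10.3 CPM, while both were higher in projection neuron Cluster 8 (325 and 200 CPM). Nr2f2 was above Cluster 4 in all 11 embryos but ran from 6.78 CPM in E1-1 to 446 CPM in S2-1. Lhx2, a LIM-homeobox gene of cortical patterning, had 151 CPM against 30.5 CPM. Tenm3, a teneurin gene listed as caudal, had 509 CPM against 701 CPM, higher than in Cluster 4 in 1 of 11 embryos. Of the rostral genes, Cdh8, a cadherin gene, had 335 CPM against 119 CPM in Cluster 4 and was higher in 11 of 11 embryos. Cdh8 had 366 CPM in Cluster 1, where Cluster 16 was higher in 4 of 11 embryos, and 2053 CPM in Cluster 9. Lmo3 had 139 against 330 CPM in Cluster 4 and 74.6 CPM in Cluster 1. Of the 5 genes listed as hippocampal, Zbtb20 had 2045 CPM against 294 CPM in Cluster 4, Nrp2 had 406 against 41 CPM and Lef1 had 101 against 15.8 CPM, whereas Prox1, the marker of dentate granule cells, had 5.64 against 5.59 CPM and Dkk3 had 4.39 against 1.76 CPM. Zbtb20 and Nrp2 exceeded both Cluster 4 and Cluster 1 in all 11 embryos. Lef1 had 71.7 CPM in Cluster 1, where Cluster 16 was higher in 9 of 11 embryos. Emx2, a homeobox gene with a caudomedial gradient, had 12.6 CPM against 2.47 CPM in Cluster 4. Subplate genes were low, with Nr4a2 at 3.20 CPM and Cplx3 at 0 in all embryos, which for 1132 nuclei means that no UMI was counted.

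**Figure D2:**
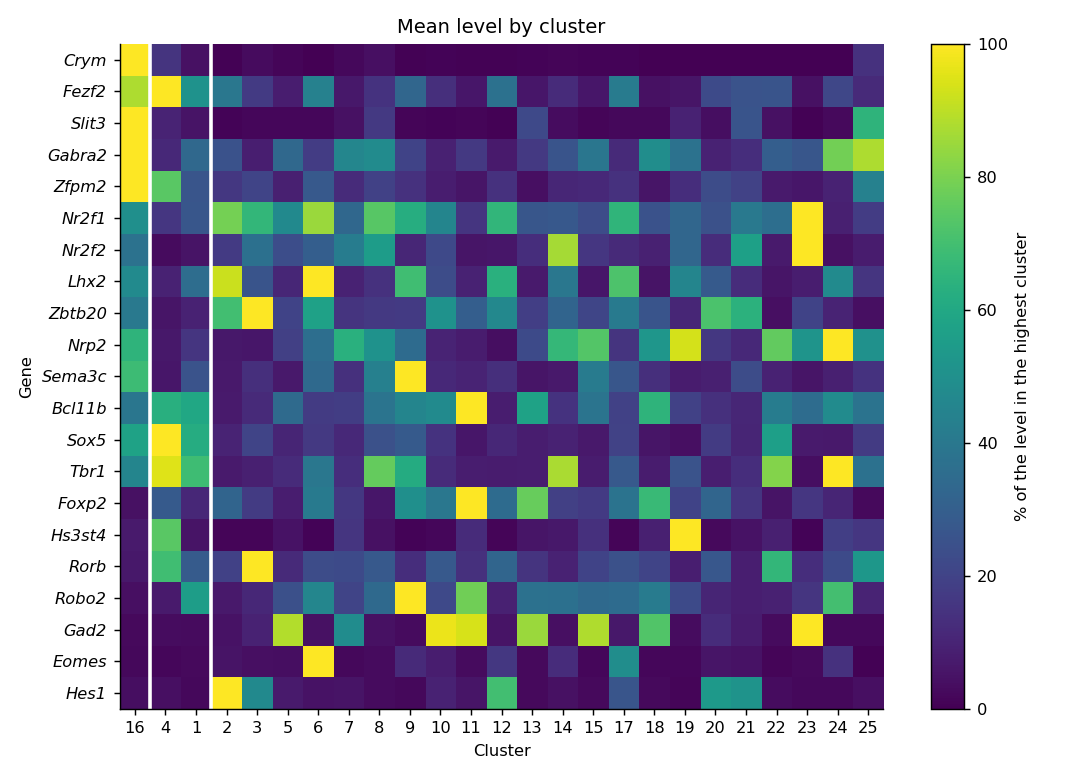
Mean level of 21 genes in each of the 25 clusters, as a percentage of the level in the cluster where the gene is highest; Clusters 16, 4 and 1 are placed at the left. Crym, Slit3, Gabra2 and Zfpm2 reach 100% in Cluster 16, Fezf2 reaches it in Cluster 4, and Gad2, Eomes and Hes1, markers of interneurons, intermediate progenitors and radial glia, are at 2.67%, 1.98% and 3.78% in Cluster 16.

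The 10 markers that the authors list first for the cluster were chosen on these nuclei and serve only as a description. Slit3, a secreted guidance ligand of Robo receptors located at 35121224 to 35708507 on the plus strand of chromosome 11, had 4098 CPM ± 454 (SD, n = 11) against 2665 CPM in Cluster 25 and 408 CPM in Cluster 4, and a UMI of it was found in 99.8% of nuclei. Cluster 16 also had the highest level of Zfpm2, Ralyl, Msra, Gabra2, Runx1t1 and Tenm2, while Tiam2 and Hivep2 ranked 2 and Lrfn5 ranked 4. Gabra2, a GABA-A receptor subunit, had 1050 CPM against 120 CPM in Cluster 4. Of 5999 genes with at least 20 CPM in Cluster 16, 168 were highest there. By the ratio to the next cluster, the leading genes after AC124532.2 (70.3 CPM, 11.6-fold) were Crym (6.64-fold), Mndal (27.1 CPM, 4.48-fold), Nr4a3 (153 CPM, 2.82-fold), Msra (1187 CPM, 2.24-fold), Crtac1 (208 CPM, 2.08-fold), Acvr1c (37.9 CPM, 1.84-fold), Fbn2 (397 CPM, 1.82-fold), Olfml2b (33.6 CPM, 1.66-fold) and Ak4 (30.6 CPM, 1.59-fold). Nr4a3 is an activity-induced nuclear receptor and Fbn2 encodes fibrillin-2.

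Guidance genes differed from Cluster 4 in both directions. Nrp1, which with Nrp2 encodes the semaphorin 3 coreceptors, had 834 CPM against 62.7 CPM in Cluster 4, and Sema3c, a ligand of both, had 257 against 22.9 CPM. Among projection neurons, Nrp1 (1726 CPM) and Sema3c (376 CPM) were higher in Cluster 9 and Nrp2 (623 CPM) in Cluster 24. Neo1, the netrin and RGM receptor neogenin, had its highest level in Cluster 16 (1032 CPM against 439 CPM in Cluster 4). Unc5a, Ntng2, Draxin, Plxna3 and Sema4d were also highest there, although Plxna3 (44.5 against 44.4 CPM) and Draxin (202 against 200 CPM) were level with the next cluster. These levels pool both treatments, and Draxin in Cluster 16 averaged 167 CPM after saline and 231 CPM after EtOH. Epha6, an ephrin receptor gene, had 484 CPM against 102 CPM in Cluster 4 and 1619 CPM in Cluster 25. Robo2, a receptor for the Slit ligands, had its lowest level of all clusters in Cluster 16, with 363 CPM against 643 CPM in Cluster 4 and 4943 CPM in Cluster 1. Of the synapse and channel genes, Grin2a, an NMDA receptor subunit gene (189 against 28.7 CPM in Cluster 4), and Cnr1, the cannabinoid receptor gene (359 against 243 CPM), were higher, and Nlgn1, the neuroligin-1 gene (4870 against 8174 CPM) was lower. Over 11621 genes with at least 10 CPM in any cluster, log2 levels of Cluster 16 correlated most with Cluster 1 (r = 0.970 across genes), Cluster 4 (r = 0.966) and Cluster 8 (r = 0.960), which share libraries and genes that are not independent.

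Cluster 16 nuclei were split by whether a Crym UMI was found, to describe how they vary among themselves. After thinning to 2000 UMIs, 57 nuclei had a Crym UMI, and 5 embryos had at least 5 of them (5 to 14 nuclei each). The 6 listed genes that were most unequal there, Robo2, Camk2a, Keap1, Pls3, Dvl2 and Top2a, rested on 2 to 10 UMIs in the nuclei with Crym, and their mean log2 ratios of -2.11, 2.10, 2.07, 2.02, 1.92 and 1.80 became -0.36, 0.20, -0.47, 0.59, 0.14 and -0.28 without thinning. They are thus not read further. Of 178 listed genes, 44 (24.7%) lay on the same side in all 5 embryos, beside 19.6% of the 7121 genes of any kind with at least 20 UMIs. The 44 were 32 higher and 12 lower, beside 1297 higher and 96 lower among the 7121. A small count was added to both sides, so a gene without a UMI in the nuclei with Crym could count as higher. Rspo2, with 0 UMIs against 20, counted as higher in 5 of 5. The share on the higher side is thus not read as agreement between embryos. Without thinning, 10 embryos entered with 7 to 46 nuclei with Crym, whose median depth was 12212 UMIs against 8615 UMIs in nuclei without it. In this split, which is not matched for depth, 27 of the 178 (15.2%) lay on the same side in all 10 embryos, beside 3.05% of the 7121. The genes named next were chosen after their values were seen, and splitting nuclei by a measured gene allows no test.

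Nuclei with a Crym UMI were higher in Chrm3, a muscarinic receptor gene, by 1.51 ± 0.85 on the log2 scale (mean ± SD over 10 embryos, higher in 10 of 10), in Zbtb20 by 0.97 ± 0.39 (10 of 10) and in Gria1, an AMPA receptor subunit gene, by 0.93 ± 0.56 (10 of 10). Epha6 was higher by 1.65 ± 1.26, Hs3st4 by 1.07 ± 0.91 and Nrp2 by 0.95 ± 0.70, each in 9 of 10 embryos. The shared markers Slit3 (0.26 ± 0.18) and Tenm2 (0.37 ± 0.21) differed less, and higher in 10 of 10 embryos. Lower beside Crym in 10 of 10 embryos were Nr2f2 (-2.23 ± 0.94), the guidance ligand gene Slit2 (-1.60 ± 1.26), the semaphorin receptor gene Plxna4 (-1.14 ± 0.78), Epha5 (-0.85 ± 0.27), Ntng2 (-0.78 ± 0.19), the potassium channel gene Kcnb2 (-0.75 ± 0.14), Sox5 (-0.60 ± 0.28) and Bcl11b (-0.41 ± 0.29). The Nr2f2 value rests on few UMIs in the nuclei with Crym of some embryos, at 0 (against 2 in the nuclei without) in E1-1, 1 (against 90) in E2-3 and 2 (against 71) in E2-1. Without thinning, Fezf2 showed no common direction (0.08 ± 0.39, higher in 7 of 10 embryos), nor with at least 2 Crym UMIs (0.11 ± 0.47, higher in 5 of 8). After thinning it was higher in 5 of 5 embryos (0.29 ± 0.19), on 7 UMIs in the nuclei with Crym. With at least 2 Crym UMIs, in 8 embryos, Hs3st4 (1.47 ± 0.84), Nrp2, Gria1 and Tenm2 were higher in 8 of 8, and Nr2f2 (-2.50 ± 1.19), Epha5, Ntng2 and Kcnb2 lower in 8 of 8. Chrm3, Zbtb20 and Epha6 were then higher and Slit2, Plxna4 and Sox5 lower in 7 of 8, Slit3 was higher in 6 of 8, and Bcl11b (-0.30 ± 0.39) was lower in 6 of 8. In the 5 embryos after thinning, Chrm3, Zbtb20, Epha6, Hs3st4, Nrp2 and Tenm2 were higher and Slit2, Plxna4, Epha5 and Kcnb2 lower in 5 of 5, Nr2f2 (-1.34 ± 1.23, 4 UMIs in the nuclei with Crym), Ntng2 and Sox5 were lower in 4 of 5, and Gria1 and Slit3 (0.02 ± 0.33) were higher and Bcl11b (-0.06 ± 0.23) lower in 3 of 5.

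**Figure D3:**
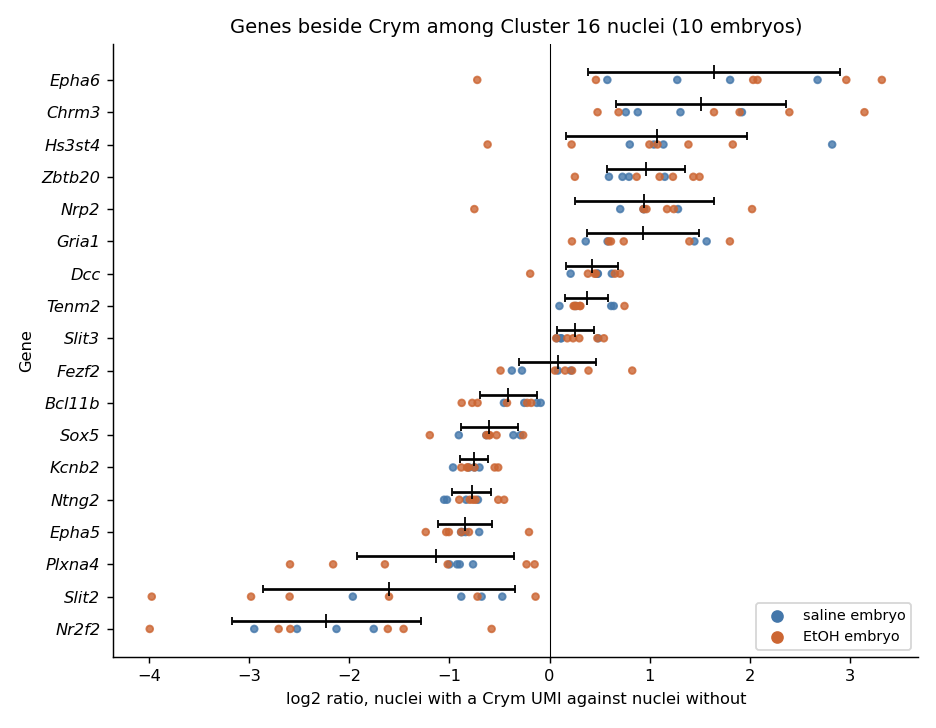
log2 ratio of the level in nuclei with a Crym UMI to that in nuclei without, for 18 genes in the 10 embryos with at least 5 nuclei on each side (points, saline blue, EtOH orange), with mean and SD in black. All points of Zbtb20, Chrm3 and Gria1 lie to the right of 0 and all points of Nr2f2, Kcnb2 and Epha5 to the left, while those of Fezf2 lie on both sides.

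EtOH exposure was then compared with saline within Cluster 16 by edgeR on the counts summed per embryo, and a gene was called where its adjusted p was under 0.05 and its fold change was below 0.8 or above the inverse of that. Of 8509 genes tested, 45 were called (0.529%), of which 24 were higher (0.282%) and 21 lower (0.247%) after EtOH. The called genes that belong to lists were Foxp2, Cux1 and Rorb, transcription factor genes of cortical layers, which were lower, and Draxin, an axon guidance gene, which was higher. At an unadjusted p under 0.05, 645 genes were higher and 512 lower. The calls were unstable. Without S1-1, 0 genes were called, and without S2-4, 321 were higher and 142 lower. Without S2-1, 2 were higher and 8 lower, and without any of the other 8 embryos 0 to 10 were higher and 4 to 18 lower. With counts summed per dam, 0 were higher and 7 lower, of which 2 were among the 45, and DESeq2 called 47 and 42.

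Foxp2, at 14901349 to 15441977 on the plus strand of chromosome 6, had 167 CPM in S1-1, 142 in S1-2, 164 in S2-1, 126 in S2-2 and 118 in S2-4 against 94.9 in E1-1, 83.2 in E1-2, 82.6 in E2-1, 108 in E2-2, 42.2 in E2-3 and 65.2 in E2-4. All EtOH embryos lay below all saline embryos (log2 fold change -0.86 ± 0.18, edgeR, adjusted p = 0.0448). Its mean was 143 CPM ± 22 (SD, n = 5) after saline and 79.3 CPM ± 23.1 (SD, n = 6) after EtOH.

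Rorb, at 18930605 to 19111196 on the minus strand of chromosome 19, had 56.6, 52.9, 43.0, 48.8 and 43.3 CPM in S1-1, S1-2, S2-1, S2-2 and S2-4 and 27.1, 32.4, 44.3, 23.6, 23.3 and 18 CPM in E1-1, E1-2, E2-1, E2-2, E2-3 and E2-4. E2-1 alone of the EtOH embryos reached the saline range (-0.89 ± 0.19, edgeR, adjusted p = 0.0395). Cux1, a homeobox gene of upper-layer neurons at 136248135 to 136567490 on the minus strand of chromosome 5, had 106 to 192 CPM in saline embryos and 62.5 to 115 CPM in EtOH embryos, with S2-4 the lowest saline and E1-1 the highest EtOH embryo (-0.80 ± 0.15, edgeR, adjusted p = 0.0336). For Foxp2, Rorb and Cux1 alike, the call held in 8 of 22 alternative analyses, and the direction in all 22. With 28 nuclei drawn per embryo, the estimates were smaller, at -0.22 for Foxp2, -0.16 for Rorb and -0.09 for Cux1. Without S2-1, the adjusted p (edgeR) was 0.0854 for Foxp2, 0.0631 for Rorb and 0.0460 for Cux1. Cux1 and Rorb were thus 2 of 9 callosal and upper-layer genes tested that were called lower, beside 0.247% of all genes tested, and all 9 had estimates at or below 0, with a median of -0.30 beside 0.01 over all genes tested. Foxp2, Cux1 and Rorb were low in Cluster 16, at 4.34% (Foxp2), 12.7% (Cux1) and 6.41% (Rorb) of their highest cluster. For Foxp2 that was Cluster 11, which was also the highest cluster of the striatal marker Ebf1 (-1.31 ± 0.42 in Cluster 16, edgeR, adjusted p = 0.214). Of the 2 striatal markers tested, the other, Rarb, by which the authors named Cluster 11, went the other way (0.14). For Cux1 (875 CPM) and Rorb (587 CPM) it was Cluster 3, which the paper describes as possible interneuron precursors, and not a callosal cluster. Rorb was also higher in Cluster 4 (406 CPM) than in callosal Cluster 1 (168 CPM), whereas Cux1 was lower in Cluster 4 (86.7 CPM) than in Cluster 1 (354 CPM). Over the 937 genes tested that were under 25% of their highest cluster, the median was -0.19 and 67.3% had estimates below 0. Of 16 testable markers of other cell types, 0 were called and 7 were lower at an unadjusted p under 0.05. The part of either in the values of Foxp2, Cux1 and Rorb was not tested beyond an alternative that left out nuclei with such markers.

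Draxin, whose product is a secreted repellent for commissural axons, lies at 148098437 to 148130698 on the minus strand of chromosome 4. It had 175 CPM in S1-1, 172 in S1-2, 133 in S2-1, 158 in S2-2 and 195 in S2-4 against 244 in E1-1, 208 in E1-2, 234 in E2-1, 250 in E2-2, 217 in E2-3 and 234 in E2-4. All EtOH embryos lay above all saline embryos (0.42 ± 0.09, edgeR, adjusted p = 0.0427), and the call held in 6 of 22 alternatives, though not without S2-1 (adjusted p = 0.0793). The gene overlaps Mad2l2 on the other strand. It was the sole called gene of 35 axon guidance genes tested, whose median was -0.05. Robo2, the receptor gene that was lowest in this cluster, had 405 to 697 CPM in saline embryos and 67.8 to 308 CPM in EtOH embryos without overlap, and its change of -1.38 ± 0.29 did not pass (edgeR, adjusted p = 0.0901).

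**Figure D4:**
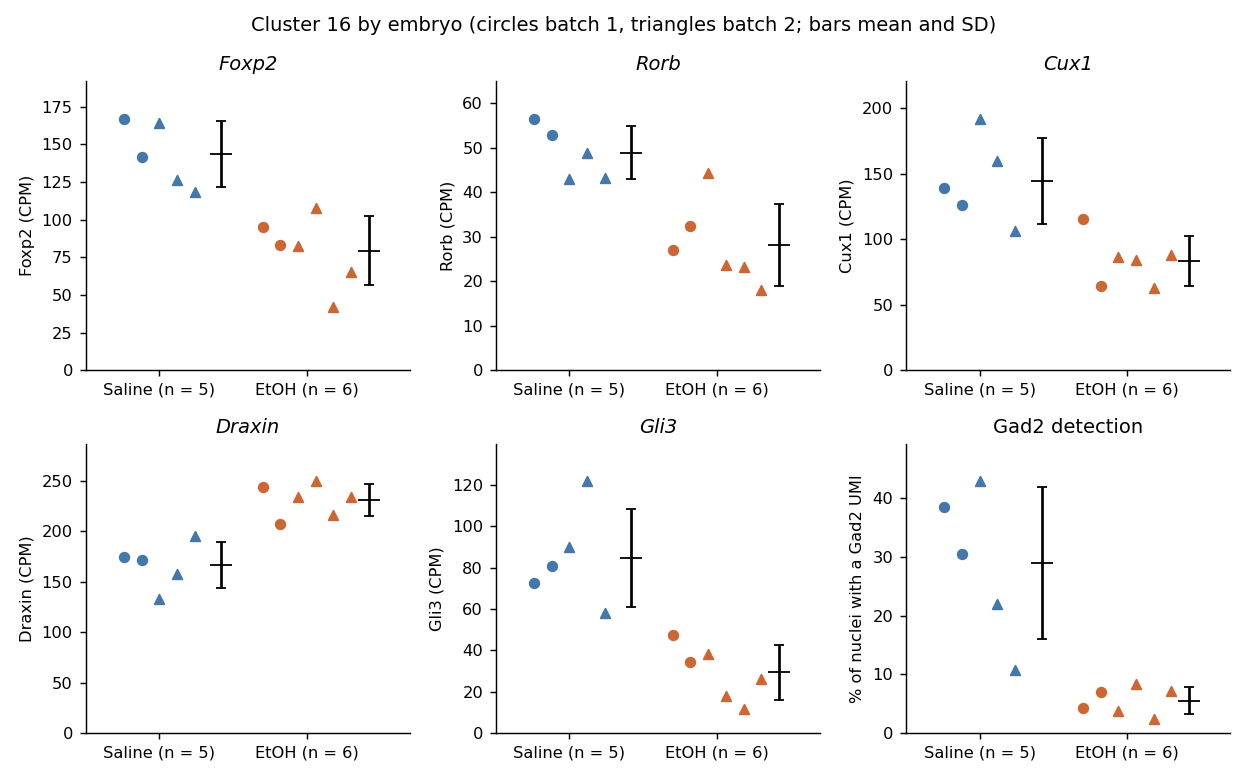
Levels (CPM) of Foxp2, Rorb, Cux1, Draxin and Gli3 and the percentage of nuclei with a Gad2 UMI in Cluster 16, for each of 5 saline and 6 EtOH embryos, with mean and SD as black bars (circles batch 1, triangles batch 2). Saline and EtOH embryos do not overlap for Foxp2, Draxin, Gli3 and the share with Gad2, where S2-4 (10.8%) is the saline embryo nearest to the EtOH embryos.

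The genes that were lower after EtOH were mostly genes with little expression in Cluster 16 and much in another cluster. The 21 genes had a median level of 7.28% of that in their highest cluster, beside 57.8% over all genes tested, and 20 of the 21 were under 25%, as were 11% of all genes tested. The 937 genes tested that were under 25% had a median log2 fold change of -0.19, with 631 (67.3%) below 0, against a median of 0.02 for the others. The groups did not overlap for 15 of the 21 lower and 10 of the 24 higher genes, beside 1.47% of all genes tested. Since these genes were called by their difference between the same embryos, a share above that of all genes is set by the choice. Gli3, an effector of Sonic hedgehog signaling in radial glia, at 15463235 to 15730026 on the plus strand of chromosome 13, had 54.4 CPM in Cluster 16 against 1824 CPM in Cluster 12, the non-mitotic radial glia. Its levels were 72.6, 80.6, 90.0, 122 and 58.0 CPM in S1-1, S1-2, S2-1, S2-2 and S2-4 and 47.5, 34.2, 38.3, 18, 11.6 and 25.9 CPM in E1-1, E1-2, E2-1, E2-2, E2-3 and E2-4, without overlap (-1.64 ± 0.27, edgeR, adjusted p = 0.0281). Adgrv1 (-1.39 ± 0.25), an adhesion G protein-coupled receptor gene, had 1.73% of its level in radial glia of Cluster 20, and Sorcs3 (-1.60 ± 0.31), a sorting receptor gene, had 1.30% of its level in Cluster 24. Zfhx4 (-1.38 ± 0.23), a zinc-finger homeobox gene, had 4.33% of its level in interneuron Cluster 13, and Nhs (-1.34 ± 0.22) had 4.07% of its level in radial glia of Cluster 2. Hells (-1.37 ± 0.26), a chromatin remodeler of dividing cells, had 8.17% of its level in Cluster 12.

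Alternatives were run for the 13 named genes of the 21, and those with the most calls were Hdac9, a histone deacetylase gene (-0.73 ± 0.12, called in 18 of 22), Qk, an RNA-binding protein gene of glia and progenitors (-0.56 ± 0.09, 16 of 22), Nhs (16 of 21) and Zfhx4 (15 of 21). With 28 nuclei drawn per embryo, the estimates were -0.45 for Hdac9, -0.24 for Qk, -0.45 for Nhs and -0.73 for Gli3. Qk had 214 to 250 CPM in saline embryos and 135 to 171 CPM in EtOH embryos, without overlap. Alms1 (-0.75 ± 0.14) and Baz2b (-0.42 ± 0.08), a bromodomain gene, completed the 12 lower genes with the smallest adjusted p. Over the 21 lower genes, which were chosen by their change in Cluster 16 so that their median there (-0.92) is set by the choice, the median log2 fold change was -0.34 in Cluster 4 and -0.57 in Cluster 1, in the same embryos, with 19 and 20 of the 21 below 0 in Clusters 4 and 1. Gli3 was -1.64 in Cluster 16, -0.58 in Cluster 4 and -1.38 in Cluster 1.

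**Figure D5:**
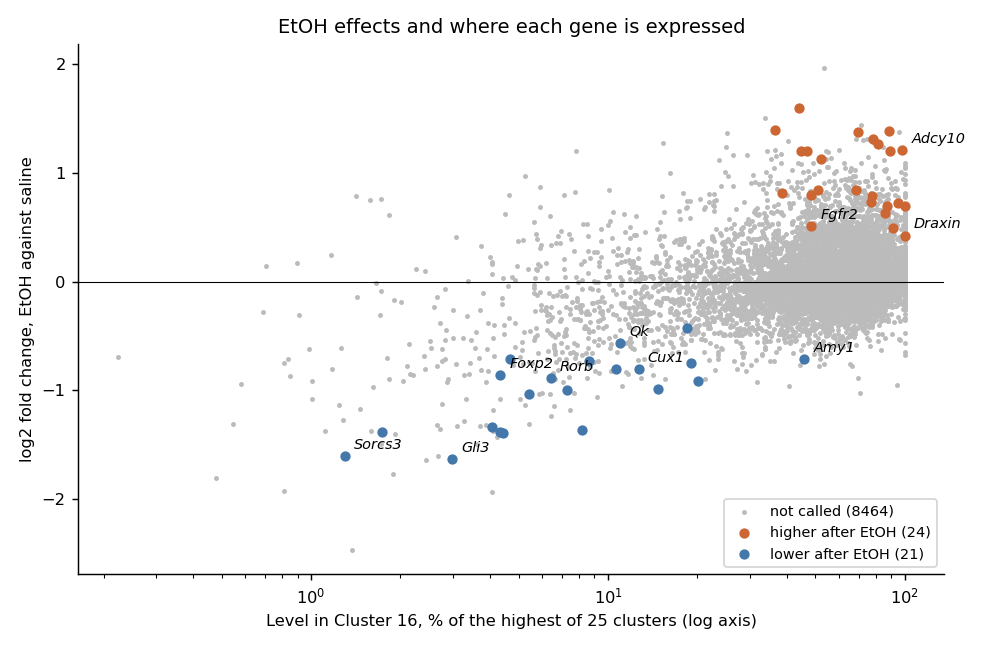
log2 fold change after EtOH in Cluster 16 against the level of each gene in Cluster 16 as a percentage of its level in the highest of 25 clusters (log axis), for 8509 genes tested. The 21 lower genes (blue) have a median of 7.28% on the horizontal axis and the 24 higher genes (orange) a median of 77.3%.

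Most markers of other cell types were at low levels in Cluster 16, with Lhx9 of the thalamic list an exception, and none that could be tested passed the adjusted test for EtOH. Gad2, the glutamate decarboxylase gene of interneurons, had a UMI in 10.8% (S2-4) to 42.9% (S2-1) of nuclei of saline embryos and in 2.41% (E2-3) to 8.33% (E2-2) of nuclei of EtOH embryos, without overlap. Thinned to 2000 UMIs, the shares were 5.06% to 10.4% and 0% to 4.63%, and the 0 of E2-4 (97 nuclei), the largest of the 3 embryos at 0, allows up to 3.09%. Gad2 (-1.60 ± 0.48) was not called (edgeR, adjusted p = 0.183). Its log2 fold change was -0.68 in Cluster 4 and -1.01 in Cluster 1. Over all embryos, a Gad2 UMI was found in 17.4% of Cluster 16, 18.4% of Cluster 4 and 16.6% of Cluster 1 nuclei. The median depths were 9352, 9236 and 6608 UMIs. The summed level of the 7 interneuron markers was 253 to 704 CPM in saline embryos and 50.9 to 437 CPM in EtOH embryos, against 25082 CPM in Cluster 5. That of the 3 intermediate progenitor markers was 22.7 to 38.8 and 3.39 to 26.2 CPM, that of the 4 markers of dividing cells 58.7 to 104 and 11.6 to 132 CPM, that of the 6 radial glia markers 78.3 to 128 and 81.4 to 120 CPM, and that of the 3 striatal markers 72.4 to 173 and 30.4 to 124 CPM. The 4 Cajal-Retzius markers summed to 60.0 to 239 and 36.3 to 146 CPM, the 4 thalamic markers to 103 to 168 and 68.5 to 153 CPM, and the 6 non-neuronal markers to 7.83 to 22.7 and 8.73 to 21 CPM. Lhx9, a homeobox gene, made up much of the thalamic sum, with 69.7 CPM in Cluster 16 (50.3% of the highest cluster, rank 3 of 25), above the 10.0 CPM of Cluster 4 in 11 of 11 embryos. No marker on these lists was at 0 in every embryo, and 0 of the 16 that could be tested were called, of which 7 (43.8%) were lower at an unadjusted p under 0.05, beside 6.02% of all genes tested.

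In an alternative chosen after seeing the data, 187 nuclei with at least 5 UMIs of any single one of 6 of these lists were left out (the interneuron list without Erbb4), of which 131 came from saline and 56 from EtOH embryos. These were 131 of 616 saline and 56 of 516 EtOH nuclei. The limit was set on counts that were not thinned, and saline nuclei were deeper, so these numbers do not compare the content of other cell types between treatments. Marker RNA below the limit stays in the remaining nuclei. In the remaining nuclei, 2 genes were higher and 9 lower, and 6 of the 45 calls remained. Foxp2 (-1.07, edgeR, adjusted p = 0.0445) and Gli3 (-1.77, adjusted p = 0.000942) stayed called, whereas Rorb (-0.56, adjusted p = 0.385), Cux1 (-0.60, adjusted p = 0.247) and Draxin (0.44, adjusted p = 0.0844) did not. The part of RNA from other cells and of depth in these calls was not tested further.

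The genes that were higher after EtOH were mostly not protein-coding. Of the 24, 17 (70.8%) had another biotype in GENCODE M21, 12 of them antisense and 5 lincRNA, beside 5.58% of all genes tested. All 24 overlap a gene on the other strand, as do 51.3% of all genes tested. Among genes tested, the share was 99.7% for antisense, 66.8% for lincRNA and 49.7% for protein-coding genes. The overlap of the 24 thus follows in large part from their biotypes. Gm11659, an antisense gene at 104250902 to 104259361 on the minus strand of chromosome 11 that overlaps Mapt, the gene of the microtubule-associated protein tau, rose from 46.5 CPM ± 10.9 (SD, n = 5) to 75.7 CPM ± 7.89 (SD, n = 6), with a log2 fold change of 0.69 ± 0.14 (edgeR, adjusted p = 0.0394). Mapt itself had a log2 fold change of 0.13 (adjusted p = 0.499). Over all 290 antisense genes tested, 256 (88.3%) had positive estimates, and the median was 0.60 in Cluster 16, 0.58 in Cluster 4 and 0.64 in Cluster 1, against 0.00, -0.02 and -0.02 for protein-coding genes in the same embryos. The antisense genes as a whole were thus shifted in each of the 3 clusters, and the part of depth, which also differed between the treatments, in this shift was not tested. The authors report default Cell Ranger parameters without a version. The strand setting of the counting, and whether introns were counted, are not spelled out in the sources used here.

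Of the 7 protein-coding genes that were higher, Adcy10, the soluble adenylyl cyclase gene, had 7.83 to 22 CPM in saline embryos and 27.1 to 55.3 CPM in EtOH embryos (1.21 ± 0.23, edgeR, adjusted p = 0.0281, called in 12 of 21 alternatives). Gsdme, a gasdermin gene of lytic cell death, had 39.1 to 88.7 and 92.0 to 151 CPM (0.85 ± 0.16, adjusted p = 0.0281, called in 13 of 22), with S2-4 the highest saline embryo. Neither overlapped between the groups. Vrk2, a kinase gene, had 58.7 to 85.6 and 79.8 to 151 CPM (0.70 ± 0.14, adjusted p = 0.0394), with E2-4 within the saline range. Draxin, the fibroblast growth factor receptor gene Fgfr2 (0.51 ± 0.12, adjusted p = 0.0486), Srpr (0.79 ± 0.18, adjusted p = 0.0486) and the ribosomal protein gene Rps27a (1.20 ± 0.27, adjusted p = 0.0485) were the others. In Clusters 4 and 1, Adcy10 had log2 fold changes of 0.93 and 0.82 and Gsdme 0.67 and 0.70.

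No other list had a called gene. Of 44 synapse and channel genes tested, 26 had estimates above 0 and 18 below, with a median of 0.05, and 2 were higher and 3 lower at an unadjusted p under 0.05. Of 18 genes of neuronal differentiation and the cytoskeleton the median was -0.03, with 3 lower (16.7%) and 0 higher at an unadjusted p under 0.05. Of 26 genes of the Wnt pathway, which directs patterning of the cortex from the hem, the median was -0.05, with 4 lower (15.4%, beside 6.02% of all genes) and 1 higher (3.85%, beside 7.58%) at an unadjusted p under 0.05. The 18 genes of apoptosis, oxidative stress and alcohol metabolism had a median of -0.05, with 1 lower at an unadjusted p under 0.05. Neurod2, a differentiation factor of projection neurons, had -0.56 ± 0.14 (adjusted p = 0.0904). Of 6 testable corticospinal and layer 5 genes and 10 of layer 6, Foxp2 alone was called, and Bcl11b (0.14), Tbr1 (0.01) and Sox5 (0.25) did not pass. At an unadjusted p under 0.05, 2 of the 6 were lower (33.3%) and 0 higher. Of the 10 layer 6 genes, 2 were higher (20%) and 1 lower (10%), and their estimates ran from -0.86 (Foxp2) to 1.16. The 10 markers of the authors had a median of 0.20, and Runx1t1 (0.37) and Tiam2 (0.26) passed an unadjusted p under 0.05 only. Subplate, rostral and hippocampal genes, of which 3 each could be tested, and the 6 caudal genes had 0 calls.

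EtOH effects were last compared between Cluster 16 and its neighbours, in a fit with the embryo as a block. Against Cluster 4, 0 of 10846 genes (0.0%) differed by edgeR, with 519 at an unadjusted p under 0.05, and DESeq2 called 4. Foxp2, Rorb, Cux1 and Draxin, called in Cluster 16, had log2 fold changes of 0.26, 0.32, -0.34 and -0.10 in Cluster 4, and none of these differences passed (edgeR interaction, adjusted p = 0.968, 0.833, 0.968 and 0.833). In Cluster 1, the same genes had -0.39, -0.27, 0.18 and 0.07, and none of their differences from Cluster 16 passed (edgeR interaction, adjusted p = 0.592, 0.878, 0.943 and 0.782). Against Cluster 1, 2 of 10356 genes differed (0.0193%), both with a negative estimate in Cluster 1 and an estimate near 0 in Cluster 16. Meg3, an imprinted long noncoding RNA, had 0.04 ± 0.10 in Cluster 16 and -0.60 in Cluster 1 (difference 0.62 ± 0.10, edgeR interaction, adjusted p = 0.0046), and Cdh7, a cadherin gene, had -0.04 ± 0.20 and -1.43 (difference 1.23 ± 0.21, adjusted p = 0.00769). Without S2-4, 8 genes differed from Cluster 1 and 3 from Cluster 4.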

How the data were processed

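Nuclei were profiled by snRNAseq with the 10x Genomics 3′ kit. Per the labels and the methods of the study, the authors aligned reads with Cell Ranger to mm10 and filtered nuclei and genes. They corrected for batch and dam with Harmony and clustered the nuclei with Seurat. Each dam belonged to a treatment, so the correction for dam is not separate from treatment. The authors state that Cell Ranger was run with its default and recommended parameters, without a version. Neither the strand setting of the counting nor the use of intronic reads is spelled out in the sources used here. The deposited tables, 1 per embryo and cluster (11 and 25), hold whole-number UMI counts of 23513 genes without normalization. A further saline embryo, S2-3, is in the labels, but no tables of it were available, and it was not analysed here. The authors report removing 1 saline sample whose distribution over the clusters differed from that of all others. Whether that sample was S2-3 is not stated. No doublet caller was run, and nuclei of high UMIs or with markers of other cell types were instead left out in alternatives.

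Counts of Cluster 16 nuclei were summed per embryo. Levels are CPM of these sums. Treatment was tested with edgeR 4.0.16 (TMM normalization, filterByExpr, quasi-likelihood test, no covariates) in R 4.3.3, with Benjamini-Hochberg adjustment over all genes tested. A gene was called when its adjusted p was under 0.05 and its fold change below 0.8 or above the inverse. Errors after log2 fold changes are SE. Effects were compared between clusters by the cluster-by-treatment term with the embryo as a block. Single values per embryo were compared by two-sided exact permutation tests. For shares of nuclei with a UMI, nuclei were thinned to 2000 UMIs. Intervals and limits cover counting error only. Alternatives used DESeq2 1.42.0, limma 3.58.1 (voom, dam as random effect), other filters, sums per dam, thinned or fewer nuclei, and each embryo left out. The scripts were tested on simulated counts.

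Genes were named by rule: Crym, Fezf2 and Mc4r, the first 10 markers of the authors, up to 12 called genes per direction, called members of the lists or else up to 4 members of highest level, genes called between clusters, the 10 genes most above the next cluster, and the 6 list members most unequal beside Crym. Other genes named with values were chosen after their values were seen. Members and lists were chosen with earlier results of these data known. Coordinates, biotypes and overlaps come from GENCODE M21 (GRCm38), in which 23125 of 23513 genes were matched by name. Replicate numbers of the labels did not pair the samples. Some members of the lists are counted but not reported by name here.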

Additional observations from a re-analysis of the deposited data

Results flagged for a closer look

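In 64 groups of 5 or 6 embryos, 9 had an embryo whose gap to the nearest other embryo exceeded Dixon's 95% critical value, and chance flags about 1 in 20 groups. S2-1 was low in its percentage of nuclei in Cluster 16 (0.465%) and in Crym (3.91 CPM) and high in Zfhx4 (121 CPM). E1-1 was low in median UMIs per Cluster 16 nucleus (6161) and high in Sorcs3 (20.3 CPM). E1-2 was high in the share of nuclei with a Crym UMI after thinning (10.9%) and in the noncoding gene 4930590L20Rik (69.2 CPM). E2-1 was high in Gsdme (151 CPM), and S2-4 was high among saline embryos in the noncoding gene 1700030F04Rik (8.67 CPM).

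The effect of EtOH differed between Cluster 16 and Cluster 1 for Meg3 by 0.62 and for Cdh7 by 1.23 on the log2 scale (edgeR interaction, adjusted p = 0.0046 and 0.00769), with Cluster 16 near 0 in both.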

How the results depend on the processing

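The number of genes called was the least stable result. Against 24 higher and 21 lower genes, the totals called were 47 and 42 by DESeq2, 172 and 163 with no filter on low counts, 0 and 7 with sums per dam, 70 and 24 by voom with a random dam effect, 3 and 4 with thinned nuclei, 10 and 12 without nuclei of high UMIs, and 4 and 0 with equal nuclei per embryo. The added alternative without nuclei with markers of other cell types, chosen after seeing the data, gave 2 and 9. Leaving out each embryo gave 0 to 321 higher and 0 to 142 lower genes, the most without S2-4, and none in either direction without S1-1. DESeq2 size factors (21 and 21) and batch as a covariate (26 and 21) kept 42 and 39 of the 45 calls. Genes that differed from Cluster 4 numbered 0, and 4 by DESeq2, 29 with no filter, 2 with thinned nuclei and 0 to 3 without 1 embryo. Those that differed from Cluster 1 numbered 2, and 46 with no filter and 1 to 8 without 1 embryo. Of the genes listed, 44 (24.7%, beside 19.6% of all genes) lay on 1 side beside Crym in the 5 embryos usable after thinning, and 27 (15.2%, beside 3.05%) in 10 embryos without thinning. After thinning, 32 of the 44 were higher and 12 lower, beside 1297 and 96 of all genes. The higher side there includes genes without a UMI in the nuclei with Crym. Filters, thinning and sums per dam change how many genes or samples enter, and otherwise the cause was not tested.

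Same-numbered embryos did not deviate together (correlations from -0.082 to 0.075), and with the replicate number as a block 0 genes were higher and 3 lower. Over 549 pairs of a gene and an alternative, none of the 26 called genes named changed direction, and the call held in 244 and was lost in 305. The genes were chosen by their change and most alternatives keep most of the same embryos, so a kept direction is largely set by the choice. The percentages of nuclei and of projection neuron nuclei, the median UMIs and the thinned Crym share kept their side of the threshold in the alternatives with a test; alternatives for the other 4 measures per embryo were not run. The 28 to 53 nuclei in S2-1, E1-1 and E2-1 limit the precision of their levels.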
